A study of Mus musculus with 12 samples.

Results

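The 9 genes described here encode routes by which calcium crosses the outer membrane of a muscle cell other than the voltage sensor of the T-tubule: Stim1, Stim2, Orai1, Orai3, Trpc1, Slc8a1, Slc8a3, Atp2b1 and Piezo1. They were chosen by symbol among the 56941 genes of the deposited count table, and all 9 passed the filter on low counts. The RNA was that of C2C12, an established line of mouse myoblasts whose cells fuse to form myotubes. Of the 12 wells, 6 held a line of genotype ChR2::tdTomato, which carries a light-gated cation channel joined to a red fluorescent protein, and 6 held the Wild-Type line. Both lines grew on a fibrin gel, 2 days in growth medium and then 6 days in differentiation medium, with aminocaproic acid throughout and IGF-1 in the second medium. No light stimulus is mentioned in the labels, and the promoter of the transgene and whether either line is 1 clone are not given in the sources used here. Nothing in the labels says that wells of a line were separate cultures, so p-values measure the spread between wells, and a difference belongs to these lines with all of their history.

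STIM proteins sit in the membrane of the endoplasmic or sarcoplasmic reticulum and sense the calcium inside it. When that store empties they gather under the cell membrane and open Orai channels, which admit calcium and let the store refill. This is store-operated calcium entry, and in people loss of STIM1 or ORAI1 function causes immune deficiency with muscle weakness, while gain of function causes tubular aggregate myopathy. TRPC1 is a nonselective cation channel, Piezo1 opens when the membrane is stretched, and the exchangers NCX1 and NCX3 (Slc8a1 and Slc8a3) and the pump PMCA1 (Atp2b1) carry calcium back out.

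The libraries held between 7388761 and 13628569 estimated counts, except wild-type wells 2 and 5 with 1061068 and 2809669. In these 2 wells 7SL RNA, which has no poly(A) tail, took 24.8% and 8.37% of the counts against at most 0.0341% in the other 10. The labels state that low-input samples were depleted of ribosomal RNA and do not name them. The comparisons between lines were therefore made over 12 libraries and again over the 10 without these 2 wells. Levels are given as CPM, counts relative to the scaled library size, and a gene is called where edgeR's quasi-likelihood test gave an adjusted p under 0.05; folds are ChR2 over wild type. All 14 myotube markers examined were expressed and tested, among them Acta1, skeletal actin, at 4213 ± 470 CPM (SD, n = 6) in ChR2 wells and 3693 ± 920 CPM (SD, n = 6) in the others. Of the myotube markers 4 were lower in ChR2 wells and 0 higher, of 6 myoblast markers 3 were higher, of 6 fibroblast markers tested 2 were higher, and all 8 proliferation markers were higher. Over the 10 libraries 5 myotube markers were lower, 1 myoblast and 2 fibroblast markers were higher, and all 8 proliferation markers were again higher. Of all genes tested 14.0% were called higher and 14.1% lower over 12 libraries, and 18.9% and 16.3% over the 10. The summed proliferation markers ran from 633 to 860 CPM in ChR2 and from 89.1 to 482 CPM in wild-type wells, and the summed myotube markers from 15823 to 19205 and from 13505 to 31526 CPM. Endothelial markers summed to at most 0.687 CPM and neuron and glia markers to at most 1.78 CPM in any well, immune markers to at most 9.002 CPM and epithelial markers to at most 3.82 CPM, and Rbfox3, Snap25 and Epcam had no count in any well. In bulk RNA, fewer cells of a type and less RNA per cell cannot be told apart, and what part the mix of dividing and fused cells plays in the differences below was not tested.

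In ChR2 wells the channel gene Trpc1 was higher, while the exchanger gene Slc8a1 and the store-operated channel genes Orai1 and Orai3 were lower. By the fitted fold, Slc8a1 stood at 0.344, Orai1 at 0.557 and Orai3 at 0.671 of the wild-type level, and Trpc1 at 2.30 times it. Stim1, Stim2, Slc8a3, Atp2b1 and Piezo1 were not called over the 12 libraries. Thus 1 gene rose and 3 fell among the 9 (p under 0.05 by edgeR's quasi-likelihood test after Benjamini-Hochberg adjustment over all genes tested). Of all 13168 genes tested 28.1% were called, 14.0% higher and 14.1% lower, so a count of 4 in 9 is not read as particular to these genes. Without wild-type wells 2 and 5 Piezo1 was called higher as well, giving 2 higher and 3 lower beside 35.2% of 13484 genes, 18.9% higher and 16.3% lower. The median log2 fold change of the 9 was -0.24, against -0.02 over all genes tested, and -0.22 against -0.0014 over the 10 libraries.

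**Figure D1:**
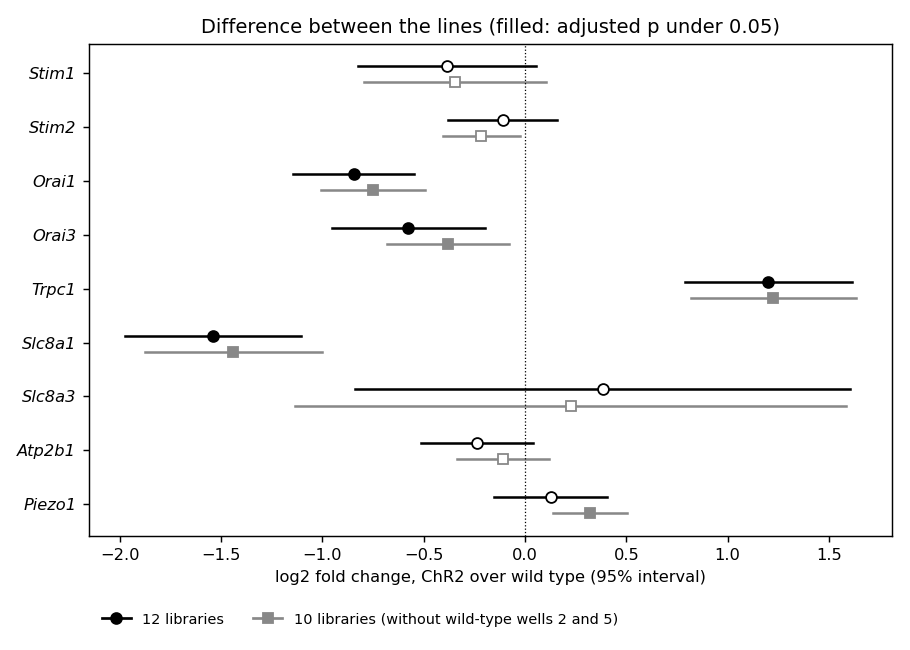
Log2 fold change of each gene, ChR2 over wild type, with its 95% interval, from the fit over 12 libraries (circles) and over the 10 libraries without wild-type wells 2 and 5 (squares); filled symbols have an adjusted p under 0.05. Trpc1 lies to the right of 0 and Slc8a1, Orai1 and Orai3 to the left in both fits, and Piezo1 is filled only in the fit over 10 libraries.

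The start-site regions of the 4 called genes are shown because these genes moved between the lines while the sensor genes Stim1 and Stim2 and the second exchanger gene Slc8a3 were not called, and because myogenic factors such as Myod1 and Myog bind E-boxes. Each window runs from 250 bases before to 50 bases after a RefSeq start (RefSeq, GRCm38.p6), 5′ to 3′ on the gene's strand, with every CANNTG in capitals; that pattern reads alike on both strands. The windows are chr5:123014824-123015123 (plus strand) for Orai1, chr7:127769565-127769864 (plus strand) for Orai3, chr17:81738338-81738637 (minus strand) for Slc8a1 and chr9:95750299-95750598 (minus strand) for Trpc1.
Orai1: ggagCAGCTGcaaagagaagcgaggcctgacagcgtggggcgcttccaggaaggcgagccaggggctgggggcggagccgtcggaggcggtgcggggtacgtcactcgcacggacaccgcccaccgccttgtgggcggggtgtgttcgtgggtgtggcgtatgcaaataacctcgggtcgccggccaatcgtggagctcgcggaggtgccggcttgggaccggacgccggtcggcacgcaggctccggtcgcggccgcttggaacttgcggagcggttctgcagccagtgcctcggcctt
Orai3: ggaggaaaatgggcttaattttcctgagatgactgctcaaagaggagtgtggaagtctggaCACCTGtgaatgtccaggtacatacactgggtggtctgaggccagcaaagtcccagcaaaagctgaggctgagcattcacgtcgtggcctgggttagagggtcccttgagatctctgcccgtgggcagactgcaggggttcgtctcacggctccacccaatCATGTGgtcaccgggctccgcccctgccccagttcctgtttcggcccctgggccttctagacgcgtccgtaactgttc
Slc8a1: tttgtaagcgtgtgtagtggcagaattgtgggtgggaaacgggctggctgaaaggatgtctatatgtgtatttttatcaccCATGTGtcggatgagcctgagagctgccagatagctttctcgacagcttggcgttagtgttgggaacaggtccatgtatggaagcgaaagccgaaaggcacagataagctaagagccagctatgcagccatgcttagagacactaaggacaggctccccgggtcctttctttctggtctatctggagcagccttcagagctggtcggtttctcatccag
Trpc1: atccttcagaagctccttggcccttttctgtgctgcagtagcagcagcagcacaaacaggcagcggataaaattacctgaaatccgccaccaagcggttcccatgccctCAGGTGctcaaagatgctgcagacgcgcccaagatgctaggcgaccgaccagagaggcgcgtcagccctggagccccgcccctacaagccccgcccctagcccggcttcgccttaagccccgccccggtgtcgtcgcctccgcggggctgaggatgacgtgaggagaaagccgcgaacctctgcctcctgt
Orai1, Slc8a1 and Trpc1 had 1 match each and Orai3 had 2, and 72.3% of 32851 such windows held at least 1. CAGCTG, one form of the same pattern, was in the Orai1 window alone of the 4 and in 16.3% of all windows; the window of Slc8a3 held it as well. Of the 5 genes that were not called, Stim1 had 1 match to CANNTG, Slc8a3 had 2, Stim2 and Piezo1 had 0, and Atp2b1 had 1 in the first and 0 in the second of its windows. The 4 windows differed in GC content, 70.3% for Orai1, 63.0% for Trpc1, 57.7% for Orai3 and 50.7% for Slc8a1, beside a median of 52.7% over all windows. Among the genes not called it was 78.7% for Stim1, 76.7% for Stim2, 75% for Piezo1 and 58.3% for Slc8a3. Both windows of Atp2b1 had 79.3%. A match describes the letters of the window and does not show that a factor binds there.

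Of the store sensors, Stim1 (ENSMUSG00000030987) encodes the main sensor of skeletal muscle. Its level was 85.2, 71.5, 66.9, 64.4, 99.7 and 82.3 CPM in ChR2 wells 1 to 6 and 61.3, 148, 86.7, 113, 70.6 and 141 CPM in wild-type wells 1 to 6. The wild-type wells spanned the whole ChR2 range, with wells 2, 4 and 6 above every ChR2 well and well 1 below every one. The log2 fold change was -0.38 (SE 0.21, 95% interval -0.82 to 0.06, adjusted p = 0.178 by edgeR), and -0.35 without wild-type wells 2 and 5 (adjusted p = 0.211). With wild-type well 1 also left out it was -0.54 (adjusted p = 0.0209).

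Stim2 (ENSMUSG00000039156), a sensor that responds to smaller falls in store calcium, was at 75.5, 68.3, 83.6, 69.9, 73.4 and 66.1 CPM in ChR2 wells 1 to 6. In wild-type wells 1 to 6 it was at 75.7, 52.4, 88.9, 87.8, 69.9 and 89.5 CPM. Wild-type wells 3, 4 and 6 lay above all ChR2 wells and wild-type well 2 below them, and the lines overlapped. The log2 fold change was -0.11 (95% interval -0.38 to 0.16, adjusted p = 0.55 by edgeR) and, without wild-type wells 2 and 5, -0.22 (-0.40 to -0.03, adjusted p = 0.0704). Of 10 fits that left out 1 more library besides that pair, 2 called Stim2. They were those without ChR2 well 3 (-0.26, adjusted p = 0.0375) and without wild-type well 1 (-0.29, adjusted p = 0.0241). In the others adjusted p reached 0.143. On the log2(TPM + 1) scale, without that pair alone, the log2 fold change was -0.53 (adjusted p = 0.0408 by limma).

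The channel gene Orai1 (ENSMUSG00000049686), which encodes the pore that STIM proteins open, was lower in every ChR2 well. It was at 22.7, 19.2, 16.6, 19.9, 22.1 and 23.3 CPM in ChR2 wells 1 to 6 against 34.5, 52.4, 43.4, 31.6, 36.0 and 31.4 CPM in wild-type wells 1 to 6. The highest ChR2 well, 23.3 CPM, lay below the lowest wild-type well, 31.4 CPM. The means were 20.6 ± 2.54 and 38.2 ± 8.21 CPM (SD, n = 6 each), a log2 fold change of -0.85 (SE 0.14, adjusted p = 0.000745 by edgeR). Over the 10 libraries that leave out wild-type wells 2 and 5 it was -0.75 (adjusted p = 0.000449).

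Orai3 (ENSMUSG00000043964), a paralog of Orai1 found in mammals, was at 10.0, 11.1, 10.3, 10.6, 13.1 and 13.5 CPM in ChR2 wells 1 to 6. In wild-type wells 1 to 6 it was at 17.4, 27.5, 17.04, 14.2, 21.1 and 11.8 CPM. Wild-type well 6 lay inside the ChR2 range, below ChR2 wells 5 and 6, and the other 5 wild-type wells lay above it. Orai3 fell by 0.58 on the log2 scale (SE 0.18, adjusted p = 0.0251 by edgeR) and by 0.38 without wild-type wells 2 and 5 (adjusted p = 0.0479). The call was lost over the remaining 11 libraries without ChR2 well 1 (adjusted p = 0.0554) or ChR2 well 3 (adjusted p = 0.0534). Of 10 fits that left out 1 more library besides wild-type wells 2 and 5, 3 called it and adjusted p reached 0.113.

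Members of the Orai family can be set beside each other per transcript length, in TPM as the authors deposited it. Orai1 made up between 52.9% and 61.8% of the summed TPM of Orai1, Orai2 and Orai3 in ChR2 wells and between 57.1% and 66.0% in wild-type wells. Orai3 made up 20.1% to 25.7% and 18.8% to 25.0%, and Orai2 17.3% to 22.9% and 15.2% to 20.4%. The ranges of the lines overlapped for each gene, and the family kept Orai1 as its most abundant member in all 12 wells. The TPM of Stim1 over that of Stim2 had a median of 0.982 in ChR2 wells, from 0.629 to 1.59, and of 1.05 in wild-type wells, from 0.612 to 3.02. The highest value of that ratio was that of wild-type well 2.

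Trpc1 (ENSMUSG00000032839) was the one gene of the 9 that rose over 12 libraries. It was at 9.44, 11.7, 11.4, 8.65, 12.4 and 10.9 CPM in ChR2 wells 1 to 6 and at 4.41, 2.62, 3.87, 6.73, 5.71 and 3.59 CPM in wild-type wells 1 to 6. The lowest ChR2 well, 8.65 CPM, lay above the highest wild-type well, 6.73 CPM. Wild-type wells 2 and 5 held 2 and 16 counts of the gene, the first of them under the floor of 3 counts. The log2 fold change was 1.20 (SE 0.19, adjusted p = 0.000621 by edgeR) and 1.23 without these 2 wells (adjusted p = 0.00035). The other 6 TRPC genes did not pass the filter, with means of at most 0.231 CPM in either line.

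Slc8a1 (ENSMUSG00000054640) encodes NCX1, the sodium-calcium exchanger best known from heart muscle. It was at 11.5, 9.47, 10.8, 10.9, 11.3 and 11.5 CPM in ChR2 wells 1 to 6 and at 16.7, 47.2, 25.4, 42.6, 29.97 and 34.9 CPM in wild-type wells 1 to 6. No ChR2 well reached the lowest wild-type well, well 1. The ChR2 wells were close together, with an SD of 7.02% of the mean, and the wild-type wells far apart, with one of 34.2%. The log2 fold change was -1.54 (SE 0.20, adjusted p = 0.000169 by edgeR), and -1.44 without wild-type wells 2 and 5 (adjusted p = 0.000228). It was the lowest fold change of the 9 genes.

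Slc8a3 (ENSMUSG00000079055) encodes NCX3, an exchanger of skeletal muscle and brain, and was close to the limit of detection. It had 19, 11, 3, 4, 39 and 43 counts in ChR2 wells 1 to 6 and 4, 0, 20, 21, 1 and 36 counts in wild-type wells 1 to 6, or between 0.377 and 4.39 CPM and between 0 and 2.64 CPM. The lines overlapped, and ChR2 wells 5 and 6 had the highest levels of the 12. The 0 of wild-type well 2 allows up to 3.93 CPM at that depth. The log2 fold change of 0.38 had a 95% interval from -0.84 to 1.60 (adjusted p = 0.66 by edgeR). Over the 10 libraries it was 0.23 (adjusted p = 0.812), and without ChR2 well 6 alone -0.03 (adjusted p = 0.981).

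Atp2b1 (ENSMUSG00000019943), the calcium pump of most cell membranes, was at 133, 127, 168, 133, 143 and 146 CPM in ChR2 wells 1 to 6 and at 188, 166, 146, 150, 219 and 135 CPM in wild-type wells 1 to 6. The lines overlapped, with wild-type wells 1 and 5 above every ChR2 well. The log2 fold change was -0.24 (95% interval -0.52 to 0.04, adjusted p = 0.182 by edgeR), and -0.11 without wild-type wells 2 and 5 (-0.34 to 0.12, adjusted p = 0.445).

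The stretch-gated channel gene Piezo1 (ENSMUSG00000014444) was at 133, 163, 166, 141, 153 and 144 CPM in ChR2 wells 1 to 6 and at 120, 156, 115, 120, 188 and 129 CPM in wild-type wells 1 to 6. Wild-type wells 1, 3, 4 and 6 lay below every ChR2 well, well 2 among them and well 5 above all of them. Over 12 libraries the log2 fold change was 0.13 (95% interval -0.15 to 0.41, adjusted p = 0.503 by edgeR). Without wells 2 and 5 it was 0.32 (0.14 to 0.50, adjusted p = 0.00999), with means of 150.0 ± 12.9 CPM in ChR2 (n = 6) and 121 ± 5.72 CPM in the 4 remaining wild-type wells. Each of 10 fits that left out 1 more library called it too, with adjusted p up to 0.049. In TPM over the same 10 libraries it was not called (log2 fold change 0.15 on the log2(TPM + 1) scale, adjusted p = 0.388 by limma). Without well 2 alone the log2 fold change was 0.18 (adjusted p = 0.322) and without well 5 alone 0.24 (adjusted p = 0.111).

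**Figure D2:**
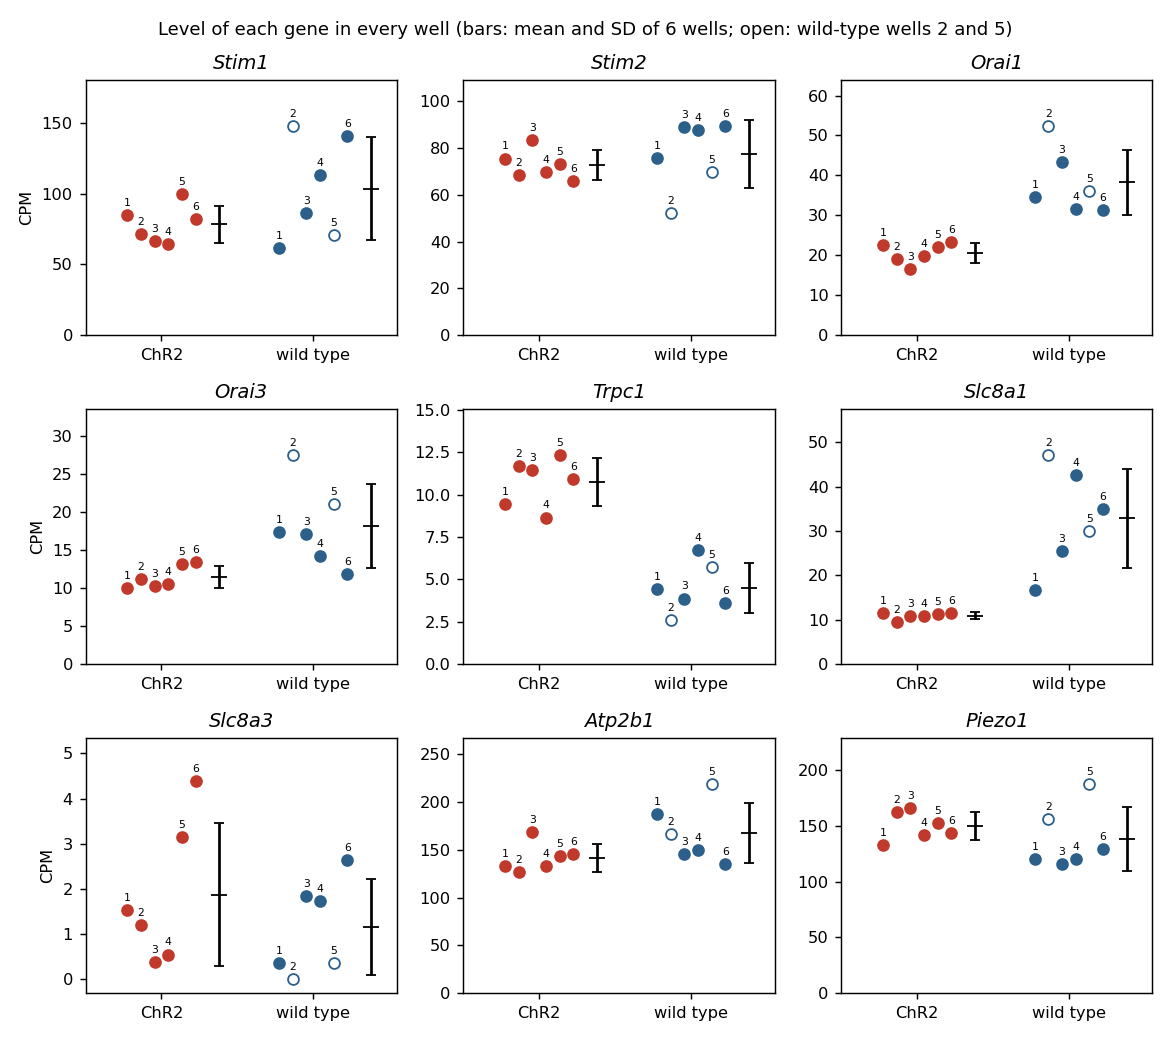
Level of each of the 9 genes in CPM on TMM-scaled library sizes, 1 point per well labelled with its replicate number, ChR2 in red and wild type in blue, with wild-type wells 2 and 5 open; bars give the mean and SD of 6 wells. The lines do not overlap for Orai1, Trpc1 and Slc8a1, and for Piezo1 the 4 filled wild-type points lie below all ChR2 points.

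Over the 12 libraries the lines did not overlap for 3 of the 9 genes, Orai1, Trpc1 and Slc8a1, beside 15.1% of all genes tested. Without wild-type wells 2 and 5 they did not overlap for 4, Piezo1 being added, beside 25.0% of all genes. For every one of the 9 genes the SD relative to the mean was larger over the 6 wild-type wells than over the 6 ChR2 wells. It ran from 18.7% for Atp2b1 to 91.7% for Slc8a3 in wild-type wells and from 7.02% for Slc8a1 to 84.6% for Slc8a3 in ChR2 wells. Over the 4 wild-type wells other than 2 and 5 it was larger than in ChR2 wells for 6 of the 9. There it was the smaller for Stim2 (7.68% against 8.66%), Piezo1 (4.72% against 8.59%) and Slc8a3 (57.5% against 84.6%). The share of all genes with a larger relative SD in wild-type wells was not computed, so this spread is not read as particular to the 9. Over all genes tested, a well's median correlation with the others of its line ran from 0.977 to 0.985 in ChR2 wells. In wild-type wells it ran from 0.856 to 0.966.

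Per transcript length, Atp2b1 was the most abundant of the 9 genes in each ChR2 well, at 44.6 ± 8.97 TPM (SD, n = 6). Stim1 followed at 31.7 ± 5.94, Stim2 at 31.5 ± 9.55 and Piezo1 at 29.1 ± 3.54 TPM, 3 levels that did not differ beyond their spread. Orai1 was at 19.2 ± 2.51, Orai3 at 7.98 ± 0.801, Trpc1 at 3.61 ± 0.825, Slc8a1 at 2.35 ± 0.497 and Slc8a3 at 0.515 ± 0.390 TPM. From Orai1 down this order was the same in each ChR2 well.

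In wild-type wells TPM has to be read with the 7SL RNA in mind, since Rn7s2 alone was listed at 54.3% of all TPM in well 2 and 44.95% in well 5. In the 4 other wild-type wells Atp2b1 was at 58.1 ± 15.6, Stim2 at 44.6 ± 5.22, Stim1 at 42.5 ± 12.9, Orai1 at 35.0 ± 7.24 and Piezo1 at 26.2 ± 2.36 TPM (SD, n = 4). Orai3 was at 11.4 ± 2.70, Slc8a1 at 5.91 ± 2.06, Trpc1 at 1.58 ± 0.644 and Slc8a3 at 0.465 ± 0.242 TPM. The levels of Atp2b1, Stim2 and Stim1 lay within their spread of each other. At the low end the order differed between the lines: Trpc1 stood above Slc8a1 in all 6 ChR2 wells and below it in all 6 wild-type wells, wells 2 and 5 included.

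**Figure D3:**
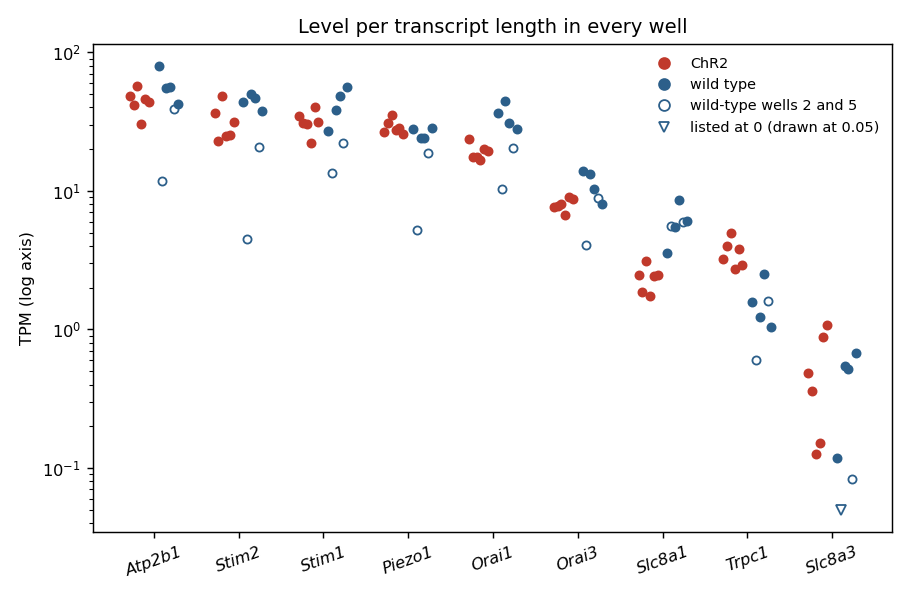
TPM of each gene in every well on a log axis, ChR2 in red and wild type in blue, with wild-type wells 2 and 5 open and the 1 value listed at 0 drawn as a triangle. Genes are ordered by their median over 12 wells; Slc8a1 and Trpc1 trade places between the lines.

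Among the partners of STIM and Orai proteins, 12 of 16 genes in the table passed the filter, and 2 rose and 3 fell, with a median log2 fold change of 0.30. Of all genes tested 28.1% were called, 14.0% higher and 14.1% lower, with a median of -0.02. Over the 10 libraries 35.2% were called, 18.9% higher and 16.3% lower, with a median of -0.0014. Neither this list nor the following ones were tested as sets, so no count is read as particular to its list. Itpr2, an IP3 receptor that releases store calcium, averaged 23.0 ± 2.67 CPM over ChR2 wells and 12.1 ± 3.12 CPM over wild type, a rise (log2 fold change 0.97, adjusted p = 0.00122 by edgeR). Saraf, which encodes an inhibitor of store-operated entry that acts on STIM1, fell, with 98.5 ± 6.24 CPM over ChR2 wells and 154 ± 42.3 CPM over wild type (log2 fold change -0.63, adjusted p = 0.0065). The scaffold gene Homer3 fell by 0.61 on the log2 scale (adjusted p = 0.0238) but was not called without wild-type wells 2 and 5 (-0.39, adjusted p = 0.0648). Without ChR2 well 5 or wild-type well 1 alone Homer3 had an adjusted p of 0.0597 and 0.0538. Orai2, the remaining paralog of Orai1 and the fifth called gene of the list, named after its values were seen, was at 18.5 ± 1.04 against 24.9 ± 7.81 CPM (log2 fold change -0.47, adjusted p = 0.045). Its call was kept over the 10 libraries (-0.48, adjusted p = 0.0132) but was lost in 9 of 12 fits that left out 1 library, with wild-type wells 2, 4 and 6 the exceptions and adjusted p up to 0.111. Without wild-type wells 2 and 5, 6 of the 12 rose and 2 fell, with a median of 0.38, Itpr2 at 1.08 and Saraf at -0.42 (adjusted p = 0.0028), and without ChR2 well 5 or wild-type well 1 alone 2 rose and 1 fell.

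Of 14 further TRP channel genes, those 6 TRPC genes included, 6 passed the filter and 1 was called, beside 28.1% of all genes tested. Pkd2, which encodes polycystin 2, a channel of the reticulum and the primary cilium, rose, with 73.2 ± 5.25 CPM over ChR2 wells and 46.1 ± 5.33 CPM over wild type (log2 fold change 0.65, adjusted p = 0.000596 by edgeR). It was at 0.65 without wild-type wells 2 and 5 too. The median over the 6 was -0.16, and -0.02 over the 10 libraries.

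Of 13 further genes of exchangers, pumps and their subunits, 6 passed the filter. Of these 4 rose and 1 fell, beside 14.0% and 14.1% of all genes tested. Their median log2 fold change was 0.60. Bsg, basigin, a glycoprotein that serves as a subunit of the membrane calcium pumps and of lactate transporters, rose, with 1409 ± 156 CPM over ChR2 wells and 850 ± 159 CPM over wild type (log2 fold change 0.73, adjusted p = 0.00279 by edgeR). Slc24a3, a potassium-dependent sodium-calcium exchanger, rose, with 5.72 ± 1.67 and 1.95 ± 1.53 CPM (log2 fold change 1.53, adjusted p = 0.0174). Slc8b1, the sodium-calcium exchanger of mitochondria, was at 25.6 ± 2.88 and 53.2 ± 17.4 CPM (log2 fold change -0.996, adjusted p = 0.00144). The other called genes, named after their values were seen, were the pump gene Atp2b4 (0.53) and Nptn (0.68), neuroplastin, another known subunit of the pumps. The 10 libraries gave 4 higher and 1 lower as well, with a median of 0.56, Bsg at 0.67 (adjusted p = 0.00231), Slc24a3 at 1.45 (adjusted p = 0.0338) and Slc8b1 at -0.76 (adjusted p = 0.0012). Atp2b4 was then at 0.67 (adjusted p = 0.000795) and Nptn at 0.45 (adjusted p = 0.000676). Thus the membrane pump genes Atp2b1 and Atp2b4 had log2 fold changes of -0.24 and 0.53, the first not called, and Atp2b2 and Atp2b3 did not pass the filter.

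Of 16 genes of other stretch-gated channels, Piezo partners and purinergic channels, 11 passed the filter. Of these 3 rose and 2 fell, beside 14.0% and 14.1% of all genes tested. Their median log2 fold change was -0.09. Mdfic, whose product binds Piezo channels and slows their inactivation, rose, with 70.1 ± 6.11 CPM over ChR2 wells and 43.1 ± 7.40 CPM over wild type (log2 fold change 0.68, adjusted p = 0.00104 by edgeR). P2rx3, an ATP-gated channel best known from sensory neurons, rose by 1.57 on the log2 scale (adjusted p = 0.011), with 5.49 to 8.57 CPM in ChR2 wells and 0.357 to 5.73 CPM in wild-type wells, ranges that overlapped. Without wild-type well 4 that value was 2.251 (adjusted p = 0.000433). Panx1, a channel that releases ATP, stood at 25.3 ± 3.32 and 47.9 ± 11.8 CPM (log2 fold change -0.88, adjusted p = 0.000937). P2rx5, an ATP-gated channel of muscle, fell by 0.72 (adjusted p = 0.0137). Tmem63a, of the TMEM63 stretch-gated channels, was the remaining called gene and is named after its values were seen (0.36, adjusted p = 0.0483). Its call was lost in 10 of 12 fits that left out 1 library, those without wild-type well 2 or 5 being the exceptions, with adjusted p up to 0.0931. Piezo2, the paralog of Piezo1, averaged 15.2 ± 3.19 and 9.30 ± 4.01 CPM without passing the test (log2 fold change 0.77, adjusted p = 0.0513). Leaving out ChR2 well 5 or wild-type well 2, 4 or 6 gave values from 0.83 to 0.96 and adjusted p from 0.0206 to 0.0493. Over the 10 libraries 3 rose and 2 fell, with a median of -0.08. Mdfic was then at 0.67, P2rx3 at 1.51, Tmem63a at 0.43, Panx1 at -0.75 and P2rx5 at -0.87 on the log2 scale.

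**Figure D4:**
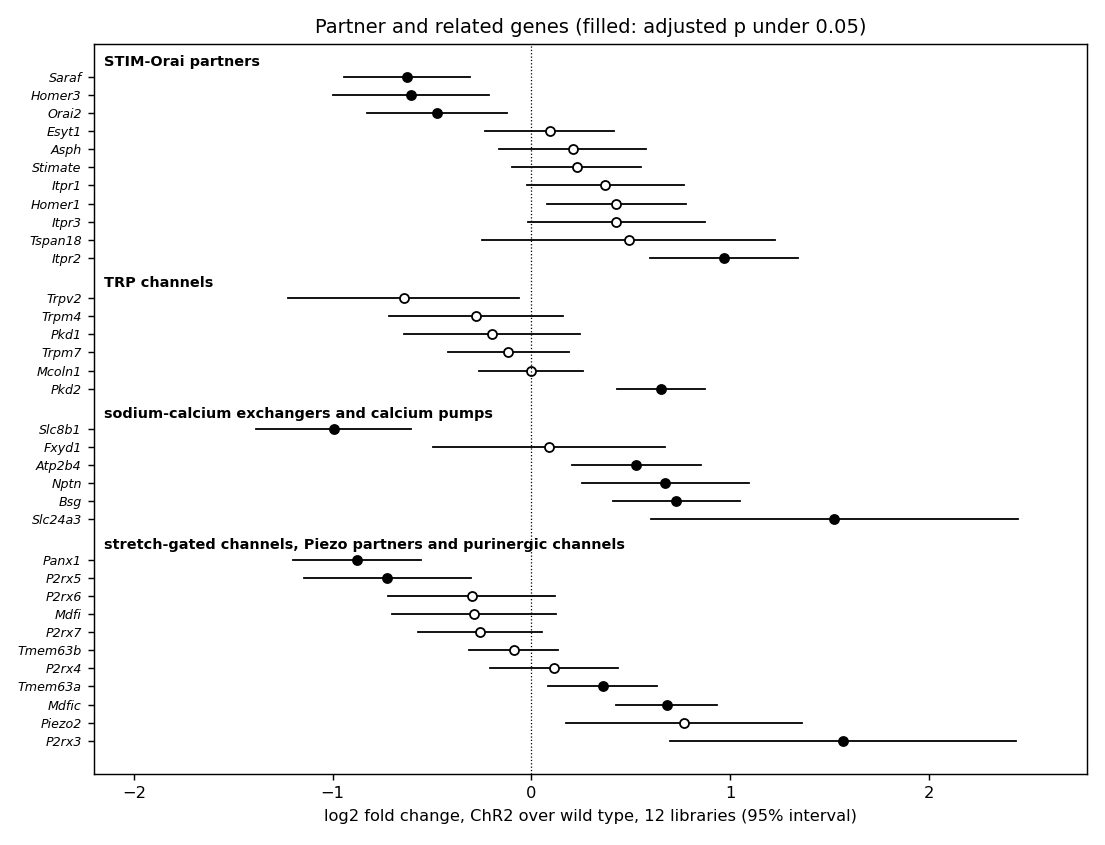
Log2 fold change over 12 libraries, ChR2 over wild type, of the tested genes of the 4 lists, 1 of them left out, with 95% intervals; filled points have an adjusted p under 0.05. Orai2, Saraf and Homer3 lie to the left of 0 and the other partners drawn to the right. In the list of exchangers and pumps Slc8b1 lies to the left, and the other genes drawn, among them Bsg, Nptn and Atp2b4, to the right.

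The genes whose log2 CPM profile over the 12 wells, each centred on its own mean, came nearest to that of Trpc1 among 11952 genes with an established symbol were Pax5, Lrrc8c and Efhd1. Their root mean square differences from it were 0.194, 0.195 and 0.21 on the log2 scale. Nearest to Slc8a1 were Setbp1, Pcx and Galnt6, at 0.281, 0.286 and 0.295. All 12 wells were used, so the difference between the lines is part of each likeness.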

How the data were processed

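The members and gene lists were chosen with earlier results of these data known. Wells were grouped by their genotype label and numbered as in their titles. The authors deposited estimated counts per gene, which need not be whole, and TPM, with 1 column per well and 0 columns unused. The submitters' processing notes name Salmon, STAR, BWA (0.7.12-r1039) and bedtools (2.25.0), and as builds GRCm39, mm10 and hg19, with no role stated for any of them. Salmon-type estimates divide reads shared by similar transcripts, so levels of paralogs carry that uncertainty. Per the labels, RNA was selected by poly(A) tail and amplified with 14 PCR cycles, and reads were pairs of 50 bases. The labels add that low-input samples, which they do not name, were depleted of ribosomal RNA.

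Counts were rounded, filtered by edgeR's filterByExpr (minimum count 10), scaled by TMM and tested with edgeR 4.0.16 in R 4.3.3 by its quasi-likelihood test (robust estimates), with genotype as the only term. P-values were Benjamini-Hochberg adjusted over all genes tested, with a threshold of 0.05. CPM is on TMM-scaled sizes. SE is the log2 fold change over the square root of the F statistic, and intervals are 95%. The floor is 3 counts in a library. Depth bounds counting error only. The lowest chi-square per degree of freedom between wells of a line was 5.09, so no well was taken as a repeat of another library, and each counted once. That check cannot show that wells were separate cultures.

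Named genes were the 9 members. From each list they were the 2 rises and 2 falls of smallest p among called genes of at least 1 CPM. The 3 genes nearest in profile to the members with the highest and lowest fold change were added. Other settings were DESeq2 1.42.0, limma 3.58.1 with voom or on log2(TPM + 1) and log2(TPM + 0.1), other scalings and filters, the replicate number as a block and left-out libraries. Fits that leave out 1 library besides wild-type wells 2 and 5, and the TPM fit without these 2 wells, were chosen after seeing the data. Figures were drawn with matplotlib 3.10.9. Promoter windows matched all 9 members by symbol, and no protein sequence was used here. The values of 1 gene of the STIM and Orai partner list are not reported here, though the list's counts and median include it.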

Additional observations from a re-analysis of the deposited data

Results flagged for a closer look

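Of 52 combinations of a named gene and a line, 2 had 1 well far from the other 5 of its line, by a criterion that chance meets in about 1 of 20 groups. In ChR2 wells Slc8a1 was lowest in well 2 at 9.47 CPM, with the other wells between 10.8 and 11.5 CPM; that well lies on the far side from the wild-type wells. In wild-type wells Saraf was highest in well 2 at 235 CPM, with the other wells between 115 and 158 CPM. Wild-type well 2 is the shallowest library and the richest in 7SL RNA, and its part in that value was not tested; without wells 2 and 5 Saraf fell by 0.42 on the log2 scale (adjusted p = 0.0028 by edgeR).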

How the results depend on the processing

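Orai1 was called in each of 12 fits that left out 1 library, as were Trpc1 and Slc8a1. Across these fits and the one without wild-type wells 2 and 5, the genes called ranged from 2822 to 4749, the members called from 3 to 5, the STIM and Orai partners from 3 to 8, the TRP channels from 1 to 1, the exchangers and pumps from 5 to 5 and the stretch-gated and purinergic list from 4 to 6. Leaving out 1 more library besides these 2 wells gave 3861 to 4975 genes and 4 to 6 members. With voom weights 5412 genes were called, Piezo1 (adjusted p = 0.0362) and 10 of the STIM and Orai partners among them. Upper-quartile scaling and DESeq2's size factors called 3578 and 3644 genes and DESeq2's Wald test 4316, and no filter 3078.

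On TPM over 12 libraries limma called 620 genes with a pseudocount of 1, 271 with 0.1 and 425 without a filter, with 93.7% to 95.5% of calls higher against 49.7% in counts. Orai1 lost its call in all 3 (-0.42, -0.44 and -0.42, adjusted p = 0.493, 0.498 and 0.619 by limma), and Trpc1 with the pseudocount of 0.1 (1.37, adjusted p = 0.0667). Orai3 lost its call in all 3 as well (-0.18, -0.19 and -0.18, adjusted p = 0.751, 0.755 and 0.739). These settings moved the median of all genes by 0.37, 0.45 and 0.10 on the log2 scale. Members called were 2, 1 and 2, STIM and Orai partners 1, 0 and 1, TRP channels 0, 0 and 0, exchangers and pumps 1, 0 and 0, and the stretch-gated list 1, 1 and 1. Log2 fold changes turned to 0.014, 0.019 and 0.014 for Stim1, 0.15, 0.18 and 0.15 for Stim2, and 0.086, 0.095 and 0.086 for Atp2b1. By construction the 7SL RNA of wild-type wells 2 and 5 lowers the TPM of all other genes there. On log2(TPM + 1) without these 2 wells 3395 genes were called, with 5 of the 8 members tested. Orai1 was then at -0.82, Orai3 at -0.44 and Slc8a1 at -1.01 (adjusted p = 0.00106, 0.0491 and 0.00229 by limma). Trpc1 was at 0.85 (adjusted p = 0.00538) and Stim2 at -0.53 (adjusted p = 0.0408). Stim1 and Atp2b1 were at -0.38 and -0.36 and were not called (adjusted p = 0.147 and 0.141).

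No sign was seen that replicate numbers pair the wells. Same-numbered wells correlated between -0.144 and 0.0954 in their deviations, 0 of 6 pairs exceeded 0.1, and 1 of 6 wells was nearest to its own number. Low correlations over 6 pairs cannot show that same-numbered wells were handled apart. With the replicate number as a block 2641 genes were called, with 3 members, 3 STIM and Orai partners and 3 stretch-gated genes; Orai3 was at -0.60 (adjusted p = 0.0569). The block without wild-type wells 2 and 5 called 3008 genes, 60.3% of them higher, with Piezo1 at 0.28 (adjusted p = 0.0863) and Slc8a3 at -0.061. Orai3 was not called there either (-0.42, adjusted p = 0.156 by edgeR). Over fits that left out 1 library Slc8a3 ranged from -0.030 without ChR2 well 6 to 0.74 without wild-type well 6. Without wild-type wells 2 and 5 it was at -0.0038, -0.20 and -0.12 when ChR2 well 5, ChR2 well 6 or wild-type well 1 was left out too. The causes of these changes were not tested. Slc8a3 had 0 to 43 counts per well. Outside wild-type wells 2 and 5 it still ran from 3 counts (0.377 CPM) in ChR2 well 3 to 43 counts (4.39 CPM) in ChR2 well 6. What part depth plays in that spread was not tested.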
